A study of Mus musculus with 6 samples.

Results

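The Polycomb complex genes described here were 32 mouse genes that encode subunits of Polycomb repressive complex 1 (PRC1) or complex 2 (PRC2), or in 1 case a partner of the enzyme that removes the PRC1 mark, given as a list of names, with no measured value in the rule. All 32 were found by symbol among the 22367 protein-coding genes of the GENCODE M1 annotation of mouse assembly NCBIM37 (mm9). By role, 6 were PRC2 core genes, 5 PRC2 accessory genes, 2 PRC1 ubiquitin ligases, 6 PCGF genes, 4 canonical CBX genes, 4 PHC and SCM genes, 4 genes of variant PRC1, and the remaining gene was Asxl1, the partner of an H2A deubiquitinase.

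Accessible DNA was mapped by ATAC-seq, which uses a transposase, Tn5, to insert sequencing adapters where chromatin is open. The 6 libraries covered 3 states of the J1 line (strain 129SV), which were embryonic stem cells (ESCs) and the 2 kinds of extended or expanded potential stem cells derived from them, D-EPSCs and L-EPSCs, named for the Deng and the Liu laboratory. ESCs were kept in serum-based medium with LIF (1000 units/mL), CHIR99021 (3 µM) and PD0325901 (1 µM). D-EPSC medium had an N2B27 base with knockout serum replacement, LIF (1000 units/mL), CHIR99021 (3 µM), dimethindene maleate (2 µM) and minocycline hydrochloride (2 µM), and no PD0325901. L-EPSC medium had a DMEM/F12 base with knockout serum replacement, LIF (1000 units/mL), CHIR99021 (3 µM), PD0325901 (1 µM), A-419259 (0.3 µM), XAV939 (5 µM), JNK inhibitor VIII (4 µM) and SB203580 (10 µM). LIF and CHIR99021 were shared by all 3 states, and base medium and inhibitors changed together, so their parts cannot be told apart. Each state had 2 technical replicates of a single line, combined by the authors into 1 list of peaks with no value per replicate, so no value below has an error across replicates and no test was made. The lists held 28965 (ESC), 50225 (D-EPSC) and 46601 (L-EPSC) peaks on chromosomes 1 to 19, X and Y, and the read depth behind them is unknown.

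Polycomb proteins keep developmental genes silent in pluripotent cells. PRC2 methylates lysine 27 of histone H3 through Ezh1 or Ezh2, and PRC1 attaches ubiquitin to histone H2A through Ring1 or Rnf2. Each PRC1 assembles around one of several PCGF proteins, and the CBX, PHC, RYBP and KDM2B subunits decide whether it reads the PRC2 mark, polymerises or binds unmethylated CpG islands directly.

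The sequences on which the start-site results turn are printed here. A start peak is a peak sharing at least 1 bp with the 1 kb on either side of a coding transcript's start. Stretches of at most 300 bases were read from NCBIM37 on the strand of the gene. Each came from the longest part of the peak outside annotated exons, as near to the peak midpoint as that part allowed. Where several such parts reached 300 bases, the last in coordinates was used. Capitals mark any match, on either strand, to 13 short consensus sequences: SP/KLF GGGCGG, Zfp281 GGGGAGGGG, E2F GCGGGAAA, NRF1 GCATGCGC, ETS CCGGAAGT, YY1 AAGATGGC, NFY CCAAT, CRE TGACGTCA, E-box CACGTG, octamer ATGCAAAT, Esrrb TCAAGGTCA, TCF/LEF CTTTGAT and the Ronin core ACTACAATT. Pcgf2, a PCGF protein of canonical PRC1 also called Mel18, was the only one of the 32 without a start peak in the ESC list. The stretches below are from its widest peaks in D-EPSC, chr11:97561118-97561417, and L-EPSC, chr11:97560220-97560519, both on the minus strand and in an intron.
Pcgf2, D-EPSC peak: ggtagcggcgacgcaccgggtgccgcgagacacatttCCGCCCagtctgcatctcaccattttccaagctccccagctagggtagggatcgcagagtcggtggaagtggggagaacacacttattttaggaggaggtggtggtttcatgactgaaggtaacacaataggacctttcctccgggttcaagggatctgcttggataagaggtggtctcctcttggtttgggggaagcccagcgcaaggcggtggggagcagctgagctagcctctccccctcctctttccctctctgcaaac
Pcgf2, L-EPSC peak: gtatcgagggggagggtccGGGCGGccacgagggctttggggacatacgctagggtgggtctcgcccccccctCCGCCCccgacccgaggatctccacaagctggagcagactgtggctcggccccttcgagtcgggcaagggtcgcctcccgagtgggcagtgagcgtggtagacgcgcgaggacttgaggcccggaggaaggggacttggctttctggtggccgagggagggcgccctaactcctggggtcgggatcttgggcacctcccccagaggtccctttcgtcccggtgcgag
The D-EPSC stretch had 57.3% GC and a CpG observed/expected ratio of 0.489, and the L-EPSC stretch 69.3% and 0.703. The L-EPSC stretch also lay wholly under the other D-EPSC start peak of the gene, so the difference is between places and not between states. Neither lay under an ESC peak.

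Bmi1, the closest relative of Pcgf2, had a start peak in every list, but not at the same start, and its sequences were added after the values had been seen. The L-EPSC stretch, chr2:18598345-18598644 on the plus strand, ends at the base before the outermost annotated start and also lies under the D-EPSC peak. The ESC stretch, chr2:18602373-18602620, lies in an intron beside the downstream starts.
Bmi1, L-EPSC peak: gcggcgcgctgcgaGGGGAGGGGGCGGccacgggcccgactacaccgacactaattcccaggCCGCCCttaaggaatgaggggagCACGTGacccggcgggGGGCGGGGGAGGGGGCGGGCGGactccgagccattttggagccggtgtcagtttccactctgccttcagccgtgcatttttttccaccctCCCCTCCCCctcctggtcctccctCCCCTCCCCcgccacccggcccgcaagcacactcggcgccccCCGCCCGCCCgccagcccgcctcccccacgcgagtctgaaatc
Bmi1, ESC peak: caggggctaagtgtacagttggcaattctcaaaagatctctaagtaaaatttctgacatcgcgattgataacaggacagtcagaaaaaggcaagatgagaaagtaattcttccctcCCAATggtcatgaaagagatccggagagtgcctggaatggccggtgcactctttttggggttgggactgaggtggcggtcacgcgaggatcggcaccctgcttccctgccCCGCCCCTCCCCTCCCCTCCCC
The upstream stretch had 72% GC, a CpG ratio of 0.765 and 12 consensus matches. Among them were runs in which the SP/KLF and Zfp281 letters overlap, and an E-box. The downstream stretch had 53.2% GC and a CpG ratio of 0.513, with SP/KLF and Zfp281 letters at its end.

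Ezh2, the main H3K27 methyltransferase of dividing cells, and Rybp, the adaptor of variant PRC1, are printed for contrast, since the narrowest of their 3 widths (the widest start peak in each list) was larger than that of any other listed gene. Both stretches come from the ESC peak on the minus strand, chr6:47544593-47544892 in an intron of Ezh2 and chr6:100237658-100237957 upstream of Rybp.
Ezh2, ESC peak: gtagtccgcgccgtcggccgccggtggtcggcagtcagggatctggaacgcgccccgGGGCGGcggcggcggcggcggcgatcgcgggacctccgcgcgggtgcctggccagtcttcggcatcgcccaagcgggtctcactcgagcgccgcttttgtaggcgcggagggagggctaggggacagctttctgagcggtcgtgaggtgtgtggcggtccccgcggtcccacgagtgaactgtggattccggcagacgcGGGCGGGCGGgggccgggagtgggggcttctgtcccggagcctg
Rybp, ESC peak: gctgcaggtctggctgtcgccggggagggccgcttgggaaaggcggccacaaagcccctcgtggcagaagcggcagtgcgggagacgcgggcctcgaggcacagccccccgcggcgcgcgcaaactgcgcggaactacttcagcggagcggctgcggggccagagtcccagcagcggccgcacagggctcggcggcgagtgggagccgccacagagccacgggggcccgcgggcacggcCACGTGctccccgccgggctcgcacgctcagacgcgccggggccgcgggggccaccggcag
They had 74% and 77.3% GC, with CpG ratios of 1.09 and 0.918. The ESC peak of Phf19, whose widest ESC start peak was narrower than that of the other genes with one, was also added after its width had been seen, chr2:34769224-34769391 on the minus strand, an intronic stretch with 64.9% GC and a CpG ratio of 0.525.
Phf19, ESC peak: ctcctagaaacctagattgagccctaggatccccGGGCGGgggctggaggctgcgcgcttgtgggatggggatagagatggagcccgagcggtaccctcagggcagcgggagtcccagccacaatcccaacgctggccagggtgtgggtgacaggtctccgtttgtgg

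A start peak was present for 31 of the 32 genes in ESC, 32 in D-EPSC and 32 in L-EPSC. Over all protein-coding genes the shares were 51.5%, 63.4% and 60.8%. All 3 lists held a start peak for 31 genes (96.9%, against 50.4% of all genes), and both EPSC lists but not ESC held a start peak for 1 gene (3.12%, against 9.16%). The share with a start peak was thus above that of all genes in each list. The starts of the 32 genes were also richer in CpG than the average start, as given below, and the part of base composition in these shares was not tested.

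Pcgf2 had 2 start peaks in D-EPSC, of 448 and 492 bp, and 1 of 920 bp in L-EPSC. All of them lay downstream of the outermost of its 3 clustered starts (chr11:97560955-97561811), between 298 and 1719 bp into the gene. The nearest ESC peak, 332 bp wide, lay 2624 bp away, outside Pcgf2 and at the start of Psmb3, a proteasome subunit gene. Pcgf2 was without an ESC peak under every alternative setting run, including start windows of 2.5 kb.

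Bmi1, a canonical PCGF protein and an early example of a Polycomb oncogene, had 2 groups of annotated starts 3.35 kb apart. At the upstream group (chr2:18598645-18599434) the D-EPSC peak was 1436 bp wide and the L-EPSC peak 951 bp. Both began at the same base, 607 bp upstream of the outermost start. No ESC peak lay within 1 kb there, and the nearest was 2939 bp away. At the downstream group the ESC peak was 409 bp wide, the D-EPSC peak 222 bp, and L-EPSC had none. Taking only the outermost start of each gene, both canonical PCGF genes had a start peak in the 2 EPSC lists and none in ESC. The plot of peak positions shows this pair beside the genes with the largest changes in width.

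**Figure D1:**
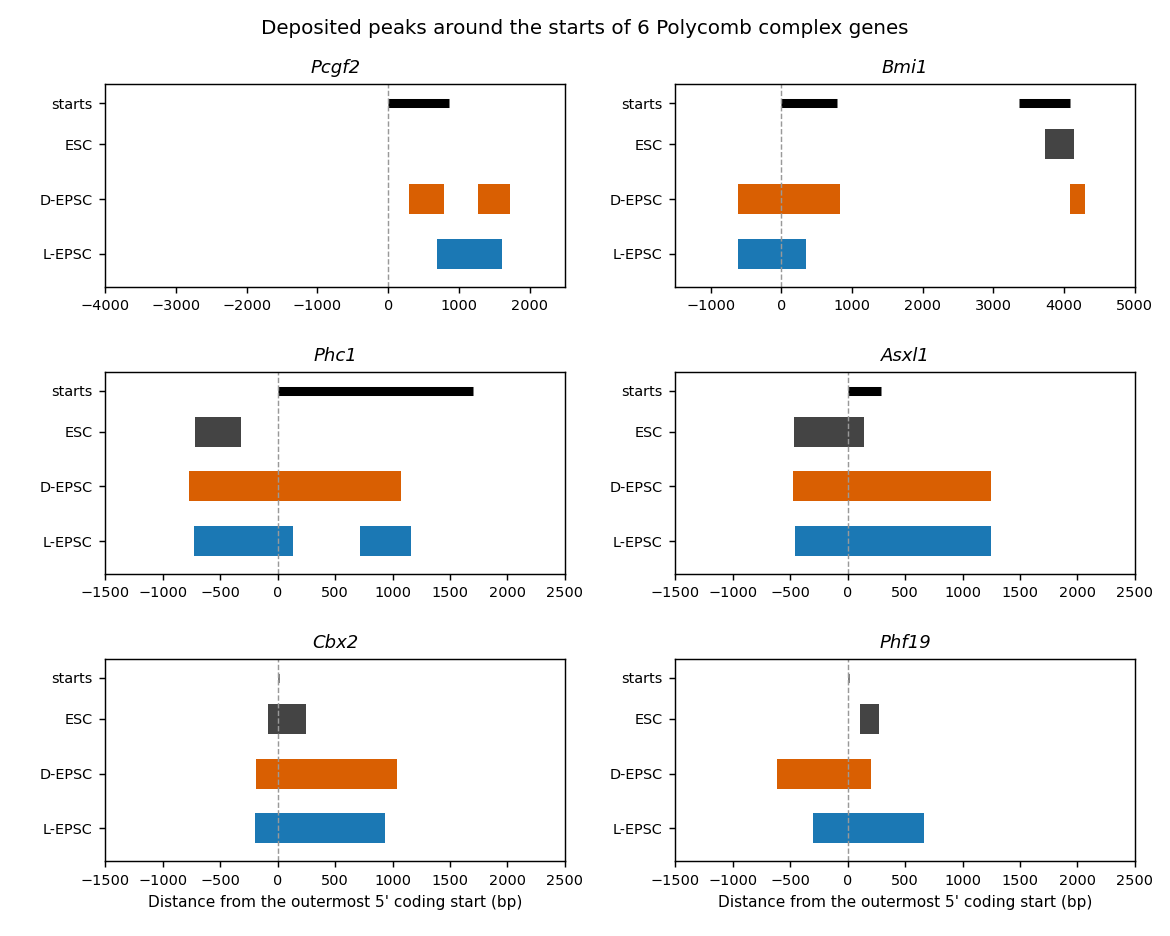
Deposited peaks around the starts of Pcgf2, Bmi1, Phc1, Asxl1, Cbx2 and Phf19, drawn to scale against the distance in bp from the outermost coding start (dashed line, transcription to the right). Black bars span groups of annotated starts and coloured bars are the peaks of the 3 lists. ESC has no bar for Pcgf2 and only a downstream bar for Bmi1, and the Asxl1 bars of both EPSC lists begin within 9 bp of the ESC bar while the EPSC bars end 1103 and 1104 bp further into the gene.

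Start peaks of the Polycomb genes were wider in both EPSC lists than in ESC. Over the 31 genes with a start peak in all lists, the median width of the widest start peak was 474 bp in ESC, 930 bp in D-EPSC and 961 bp in L-EPSC. Over the 11276 protein-coding genes with a start peak in all lists the medians were 548, 788 and 742 bp. The median of the Polycomb genes thus lay below that of all genes in ESC and above it in both EPSC lists. The median ratio of D-EPSC to ESC width was 1.56, against 1.36 over all genes, and that of L-EPSC to ESC 1.74, against 1.27.

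The D-EPSC peak was the wider for 31 of 31 genes, against 82.6% of all genes, and the L-EPSC peak for 30 of 31, against 77.2%. Ezh1, the methyltransferase that predominates in non-dividing cells, was the exception, at 534 bp in ESC, 594 bp in D-EPSC and 482 bp in L-EPSC. The widest peak was taken over all starts of a gene, so the ESC and D-EPSC peaks compared for Bmi1, Cbx7 and Kdm2b lay at different starts. Peaks were at least 2 times as wide in D-EPSC as in ESC for 10 of 31 genes (32.3%, against 22.6%) and in L-EPSC for 13 (41.9%, against 18.5%). Between the EPSC lists there was no common direction, with 18 of 32 genes wider in L-EPSC than in D-EPSC, against 40.1% of all genes. Widths follow the depth and settings of peak calling as well as accessibility, and their parts cannot be told apart without the reads.

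**Figure D2:**
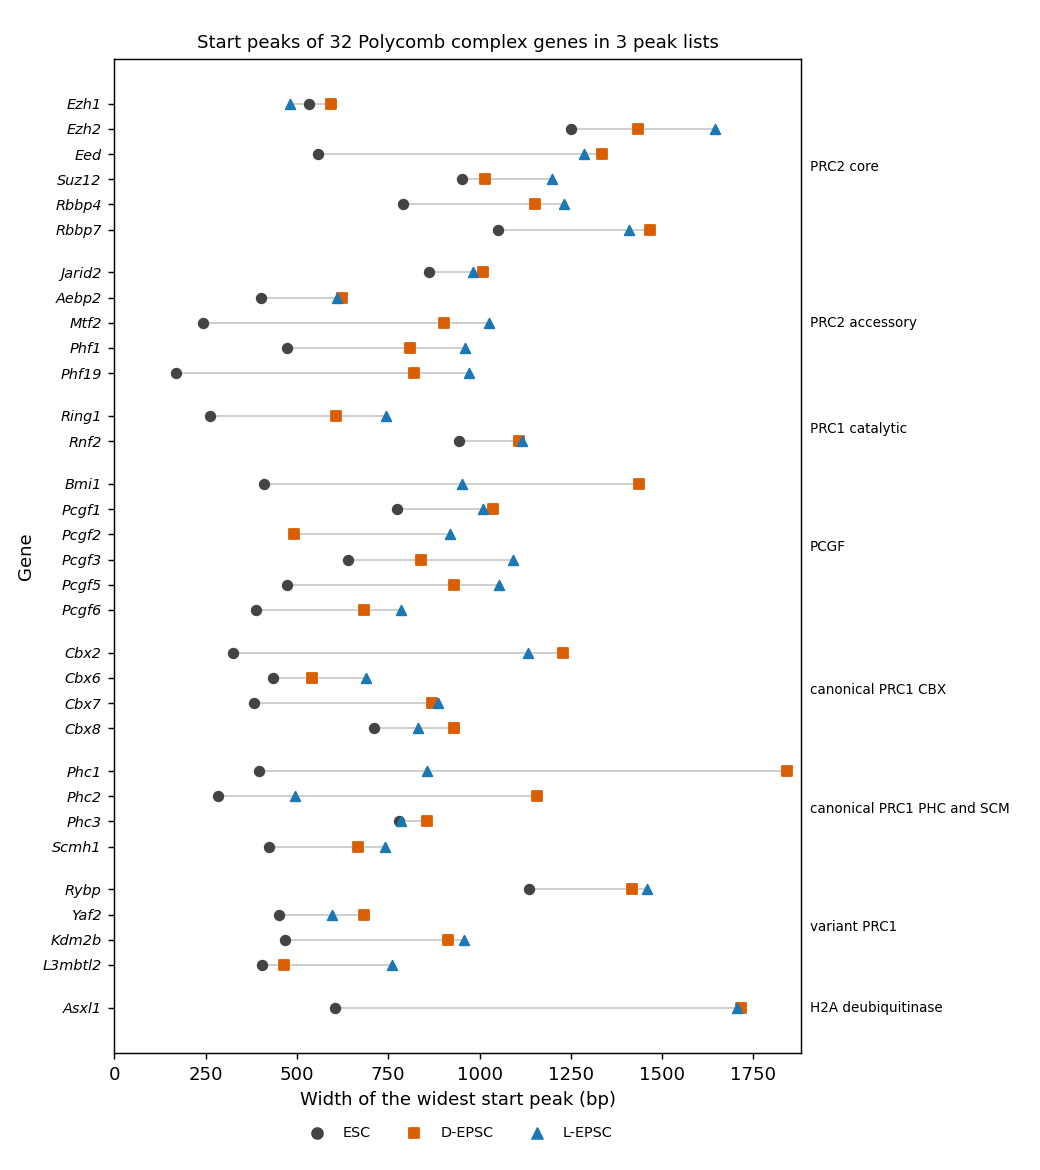
Width in bp of the widest start peak of each of the 32 genes (rows, grouped by role) in ESC (circles), D-EPSC (squares) and L-EPSC (triangles), with a grey line from the lowest to the highest value. ESC is the leftmost symbol for every gene with an ESC peak except Ezh1, Pcgf2 has no ESC symbol, and the widest gaps between the EPSC symbols are those of Phc1, Phc2, Bmi1 and Pcgf2.

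The 6 PRC2 core genes had the widest ESC peaks of any role with more than 2 genes, with a median of 872 bp and a range of 534 to 1250 bp. Their median ratio to ESC was 1.27 in D-EPSC and 1.33 in L-EPSC, the lowest of those roles in each list. Ezh2 had peaks of 1250, 1434 and 1646 bp in ESC, D-EPSC and L-EPSC, and Suz12, the scaffold that holds the complex together, of 953, 1016 and 1199 bp. Eed, which binds the H3K27me3 mark, differed most within the core, at 559, 1336 and 1285 bp. Rbbp4 and Rbbp7, histone-binding proteins shared with other complexes, had ESC peaks of 791 and 1052 bp, and all 4 of their EPSC peaks were wider. The start of another coding gene lay within 1 kb of a Rbbp4 start, so that its peak could not be assigned to 1 gene.

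The 5 accessory genes of PRC2 had a median ESC width of 401 bp and median ratios of 1.71 in D-EPSC and 2.03 in L-EPSC. The 3 Polycomb-like genes, whose proteins bring PRC2 to CpG islands, were those with the larger ratios. Mtf2 had peaks of 244, 904 and 1025 bp in ESC, D-EPSC and L-EPSC, and Phf1 of 474, 810 and 961 bp. Phf19 had 168, 821 and 972 bp, ratios of 4.89 and 5.79. Its ESC peak began 105 bp downstream of the start, and 168 bp was the most frequent width of that list, with 2015 peaks. Phf19 had no ESC start peak when peaks of 168 bp or less were left out of every list. Jarid2, which guides PRC2 to chromatin carrying ubiquitinated H2A, had a wider ESC peak and smaller ratios, at 861, 1010 and 983 bp, and Aebp2, a zinc finger cofactor, had 401, 624 and 611 bp.

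The PRC1 ligases differed from each other. Ring1 had peaks of 261, 607 and 744 bp in ESC, D-EPSC and L-EPSC, and Rnf2, the ligase that does most of the H2A ubiquitination in ESCs, of 945, 1109 and 1117 bp. Among PCGF genes of variant PRC1, Pcgf3 had 641, 839 and 1093 bp and Pcgf5 474, 930 and 1053 bp. Both of these genes had their widest peak in L-EPSC, as did Pcgf6 at 389, 685 and 786 bp. Pcgf1, the PCGF partner of Kdm2b, had 774, 1038 and 1010 bp.

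The canonical CBX proteins read H3K27me3 through their chromodomain. Cbx2, which also compacts chromatin, had peaks of 326, 1229 and 1132 bp in ESC, D-EPSC and L-EPSC, and Cbx7, the main CBX protein of ESCs, of 382, 871 and 885 bp. Cbx8 had 711, 930 and 831 bp and Cbx6 435, 542 and 689 bp. Cbx6 also had the start of another coding gene within 1 kb.

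The PHC proteins polymerise through their SAM domain and cluster PRC1. Phc1 had the largest difference of the whole set, from 396 bp in ESC to 1842 bp in D-EPSC, with 856 bp in L-EPSC. The 1842 bp peak overlapped 2 separate L-EPSC peaks, of 856 and 444 bp. Phc2 showed the same order, at 285, 1157 and 496 bp. Phc1, Phc2 and Bmi1 were the genes whose peaks narrowed most from D-EPSC to L-EPSC, with differences of -986, -661 and -485 bp. Phc3 differed little, at 779, 856 and 784 bp, and Scmh1, a Sex comb on midleg homologue, had 424, 667 and 740 bp.

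In variant PRC1, Rybp had peaks of 1136, 1418 and 1459 bp in ESC, D-EPSC and L-EPSC, and its homologue Yaf2 of 450, 683 and 595 bp. L3mbtl2, an MBT-domain protein of the Pcgf6 complex, had 404, 464 and 761 bp. Its L-EPSC excess over D-EPSC of 297 bp was smaller only than that of Pcgf2, at 428 bp, and was followed by that of Pcgf3, at 254 bp. Asxl1, which activates the deubiquitinase that removes the PRC1 mark, had 605, 1717 and 1706 bp, the largest L-EPSC difference from ESC of the set at 1101 bp.

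The start peaks of the EPSC lists mostly contained those of ESC. Of the 37 ESC start peaks of the 32 genes, 35 were overlapped by a D-EPSC start peak and 34 by an L-EPSC start peak, and 25 and 23 lay wholly inside one. For 20 of 31 genes every ESC start peak lay inside D-EPSC peaks, against 53.4% of all genes with an ESC start peak, and for 20 of 31 inside L-EPSC peaks, against 46.3%. Of the 42191 bases covered by start peaks in any list, 41.8% were covered in all lists, 28.3% in both EPSC lists only and 2.42% in ESC only. The rest were covered in a single EPSC list, or in ESC and a single EPSC list. These base shares were not computed over all genes, so they cannot be called particular to the Polycomb genes. The bases gained in both EPSC lists had nearly the same composition as the shared bases, with 67.9% against 68.6% GC and CpG ratios of 0.847 and 0.861. Of 22 genes with at least 100 bp of each kind, GC was higher in the shared bases for 12 and lower for 10.

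The additional width lay mainly on the side of the gene. This was examined after the values had been seen, by pairing the widest ESC start peak of each gene with the widest EPSC start peak that overlapped it. In D-EPSC the downstream edge was further out by a median of 160 bp and the upstream edge by 89 bp, and in L-EPSC by 215 and 60.5 bp. Over all genes the medians were 95 and 57 bp in D-EPSC, and 76 and 41 bp in L-EPSC. The downstream edge moved further than the upstream edge for 23 of 31 genes in D-EPSC, against 57.3% of all genes, and for 21 of 30 in L-EPSC, against 57.1%. A downstream shift of at least 200 bp was found for 12 of 31 genes in D-EPSC (38.7%, against 30%) and for 17 of 30 in L-EPSC (56.7%, against 26.1%). An upstream shift of that size was found for 6 of 31 (19.4%, against 17.2%) and 8 of 30 (26.7%, against 14.3%).

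Asxl1 was the clearest case, with upstream edges within 9 bp of the ESC edge in both EPSC lists and downstream edges 1103 and 1104 bp further into the gene. Cbx2 moved by 106 bp upstream and 797 bp downstream in D-EPSC, and by 115 and 691 bp in L-EPSC. Eed moved by 640 and 690 bp downstream in D-EPSC and L-EPSC, and Mtf2 by 507 and 599 bp. At Phc1 the downstream shift was 1393 bp in D-EPSC and 452 bp in L-EPSC. In D-EPSC the upstream shift was the larger for 8 of 31 genes, against 4801 of 11310 over all genes. Among the 8, Phf19 and Cbx7 had upstream shifts of 719 and 423 bp and downstream edges short of the ESC edge. Scmh1 and Phc3 also had downstream edges short of it, with upstream shifts of 251 and 89 bp. Matched by overlap with the ESC peak, the D-EPSC peak was wider for 30 of 31 genes, against 9247 of 11310 over all genes. The L-EPSC peak was wider for 29 of 30, against 8585 of 11204. The exceptions among the Polycomb genes were Bmi1 in D-EPSC and Ezh1 in L-EPSC. Peak edges carry the uncertainty of the peak caller, and no score per base was analysed here.

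**Figure D3:**
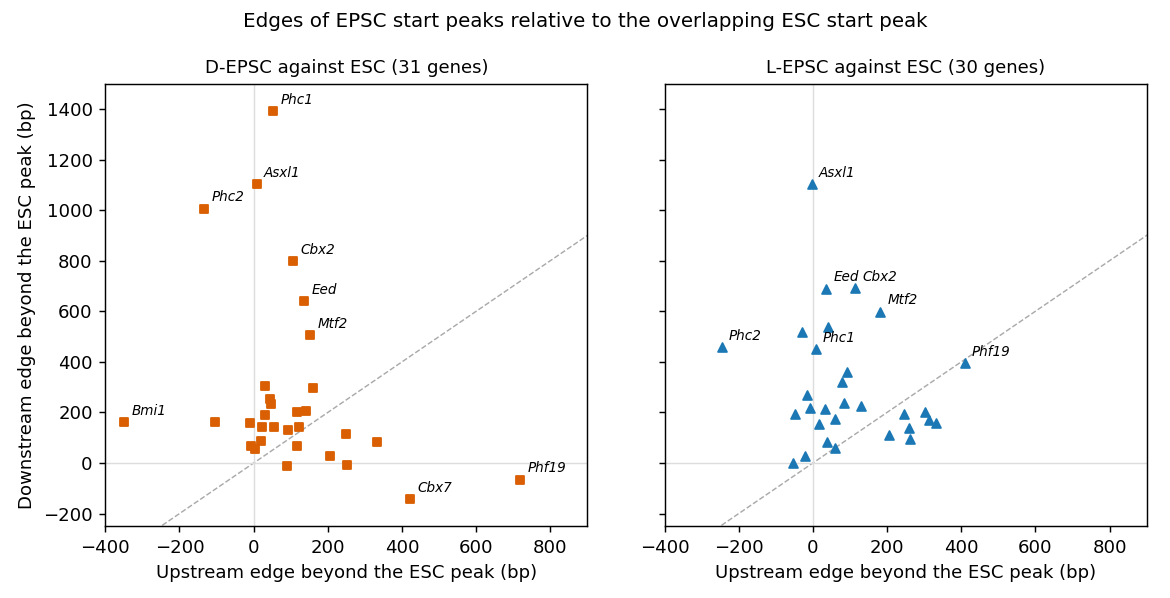
Distance in bp by which the upstream edge (horizontal axis) and the downstream edge (vertical axis) of the EPSC start peak lay beyond those of the ESC start peak it overlapped, for 31 genes in D-EPSC (left) and 30 genes in L-EPSC (right). Points above the dashed line of equal shift moved further downstream, 23 of 31 and 21 of 30, and Asxl1 lies near 0 bp upstream and at 1103 and 1104 bp downstream.

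Many of the genes have alternative starts. Starts lying within 1 kb of each other were joined into groups, which gave 59 groups for the 32 genes, with more than 1 group in 15 genes. A peak lay within 1 kb of 36 groups in ESC (61%), 40 in D-EPSC (67.8%) and 37 in L-EPSC (62.7%), against 40.5%, 51.7% and 49.1% of the 30018 groups of all genes. Kdm2b, whose CxxC domain binds unmethylated CpG and recruits variant PRC1, had 5 groups. Its outermost coding start had no peak within 1 kb in any list, although peaks of 776, 961 and 863 bp in ESC, D-EPSC and L-EPSC lay at the outer end of the gene, 2.33 kb upstream of that start. At the group of 5 starts 23.1 kb into the gene a peak was found in D-EPSC only, with a widest peak of 404 bp. The start at 60.4 kb had peaks of 168, 915 and 863 bp, and that at 113 kb had 468, 786 and 958 bp.

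Other genes with several groups of starts showed both patterns. Jarid2 had a downstream group 111 kb into the gene with an ESC peak of 243 bp, a D-EPSC peak of 531 bp and no L-EPSC peak. Pcgf5 had no peak at its outermost start in any list, and its peaks lay at a start 30.7 kb downstream. Cbx7 had peaks of 332, 871 and 545 bp at its outermost start and of 382, 663 and 885 bp at the starts 38.5 kb downstream, so that the start with the wider peak was not the same in D-EPSC and L-EPSC. Phc2 had its widest peaks at starts 72.8 kb into the gene, while its outermost start had 270, 613 and 426 bp.

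Within gene bodies, peaks outside the start windows numbered 30 in ESC, 47 in D-EPSC and 58 in L-EPSC. At least 1 such body peak was found in 15 of the 32 genes in ESC, 19 in D-EPSC and 18 in L-EPSC, against 22.6%, 34.3% and 32.9% of all protein-coding genes. Merged across lists they formed 77 regions in 20 genes, and 12 genes had none. Per 100 kb of gene the set had 5.26 regions, against 2.53 over all genes. Introns held 64 of the 77 regions, coding exons 6, untranslated or non-coding exons 6, and 1 region, the Kdm2b region at its outer end, had its midpoint outside the gene.

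By list, 19 regions (24.7%) had a peak in all 3 lists, 15 (19.5%) in both EPSC lists only, 21 (27.3%) in L-EPSC only, 11 (14.3%) in D-EPSC only and 7 (9.09%) in ESC only. Over the body regions of all genes these shares were 20.9%, 19.1%, 20.9%, 26.6% and 6.32%. The share in both EPSC lists only was thus close to that of all genes, while the single-list regions were more often of L-EPSC than of D-EPSC, the reverse of all genes. Several of these regions shared a gene, and Jarid2, Aebp2 and Cbx7 held 6, 4 and 3 of the L-EPSC-only regions. Counted by gene, L-EPSC-only regions were present in 9 genes and D-EPSC-only regions in 7, a count not made over all genes. A region in both EPSC lists only was present in 9 of the 32 genes, against 14.9% of all genes. With only the widest 28965 peaks of each list, which removes narrow peaks from the EPSC lists and none from ESC, body peaks numbered 30 in ESC, 16 in D-EPSC and 24 in L-EPSC, and regions in both EPSC lists only numbered 2. With peaks of 168 bp or less left out of every list, body peaks numbered 27, 32 and 41, genes with a body peak 15 in each list, and regions in both EPSC lists only 6.

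The 5 genes with most body regions were Jarid2 with 17, Kdm2b with 13, Cbx7 with 8, Aebp2 with 6 and Phc2 with 5. Together they held 63.6% of the regions in 37.3% of the gene length. The widest region that both EPSC lists held and ESC lacked lay in an intron of Phc2 at chr4:128392530-128393618, 61.1 kb downstream of the outermost start, with a peak of 1089 bp in D-EPSC and 446 bp in L-EPSC. Its middle, chr4:128392924-128393223 on the plus strand, is shown because no other body region of the set held by both EPSC lists and not by ESC was wider.
Phc2, middle of the region: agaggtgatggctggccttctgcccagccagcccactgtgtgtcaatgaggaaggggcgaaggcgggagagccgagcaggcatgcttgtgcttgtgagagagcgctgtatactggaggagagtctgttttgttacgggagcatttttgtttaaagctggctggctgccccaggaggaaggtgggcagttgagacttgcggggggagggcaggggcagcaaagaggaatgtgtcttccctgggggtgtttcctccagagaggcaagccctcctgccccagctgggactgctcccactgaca
The L-EPSC peak was chr4:128392996-128393441, so the beginning of this stretch lay under the D-EPSC peak only. The stretch had 59.7% GC and a CpG ratio of 0.24, with none of the 13 consensus sequences. The whole region had 57.9% GC, a CpG ratio of 0.155 and Zfp281 letters outside the printed stretch. The next widest were a Kdm2b region of 664 bp (chr5:123411628-123412291, 249 bp in D-EPSC and 591 bp in L-EPSC) and a Jarid2 region of 649 bp (chr13:44946838-44947486, 186 and 649 bp), both intronic.

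The widest regions found in a single list were narrower. They were a Jarid2 region of 326 bp in ESC (chr13:44895101-44895426), a Kdm2b region of 460 bp in D-EPSC (chr5:123375613-123376072) and a Jarid2 region of 353 bp in L-EPSC (chr13:44928895-44929247), all intronic. The median width was 461 bp for regions in all lists, 296 bp for those in both EPSC lists only, and 201, 151 and 199 bp for those in ESC, D-EPSC or L-EPSC only. As a group, body regions were less rich in CpG than starts, with medians of 51.4% GC and 0.231 for the CpG ratio.

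**Figure D4:**
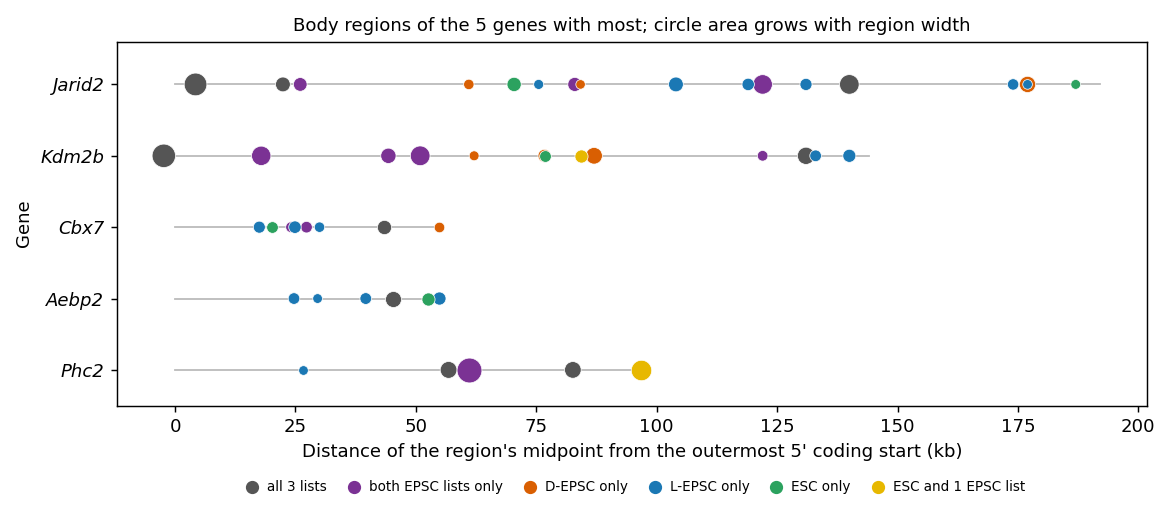
Body regions of Jarid2, Kdm2b, Cbx7, Aebp2 and Phc2, placed by the distance of their midpoint in kb from the outermost coding start (grey line, the length of the gene). Colour gives the lists with a peak and circle area grows with width. Each gene has at least 1 region of all 3 lists and at least 1 of a single list, and the largest region of both EPSC lists only is that of Phc2 at 61.1 kb.

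The starts of the Polycomb genes were rich in CpG. Within 250 bp on either side of the outermost coding start the median GC content was 66.2%, against 57.3% over all protein-coding genes, and the median CpG observed/expected ratio 0.847, against 0.595. At least 50% GC and a ratio of at least 0.6 were found together at 25 of 32 starts (78.1%), against 48.1%. The SP/KLF letters, which are themselves GC, were present at 25 starts (78.1%, against 53%), Zfp281 letters at 7 (21.9%, against 9.42%) and the E-box at 7 (21.9%, against 10.4%). With 500 bp on either side the Zfp281 letters were at 9 starts (28.1%, against 15.4%) and the E-box at 10 (31.2%, against 17%). With every coding start of a gene searched, the Zfp281 letters were found in 15 genes (46.9%, against 13% of all genes) and the E-box in 12 (37.5%, against 14%). That search is not like for like, since the Polycomb genes had more groups of starts per gene (59 in 32 genes) than all genes (30018 in 22367). NFY letters were as frequent as elsewhere, at 15 starts (46.9%, against 48%), and less frequent with 500 bp on either side, at 19 (59.4%, against 70.4%). The YY1 letters were found at 3 starts (9.38%, against 5.14%), or at 7 with 500 bp on either side (21.9%, against 7.9%), NRF1 at 2 (6.25%, against 3.95%) and CRE at 2 (6.25%, against 2.62%). ETS letters were found at 1 (3.12%, against 5.86%), as were the octamer (against 2.1%) and Esrrb (against 0.586%), and the TCF/LEF letters (4.95% of all starts) and the Ronin core (0.514%) at none. These matches are a description of letters and not of binding.

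The E2F letters, read by the factors that switch on genes of DNA replication, were at 6 of the 32 starts (18.8%), against 2.09% of all starts. The genes were Eed and Suz12 of the PRC2 core, the Polycomb-like Mtf2 and Phf19, and Pcgf2 and Phc1 of canonical PRC1. The E2F letters hold a CpG, and the starts of the 32 genes were richer in CpG than those of all genes. The part of base composition in the E2F share was not tested. Each site is printed with 11 bases on either side, on the strand where the letters read forward, with the E2F letters in capitals.
Eed: tcgagagggcgGCGGGAAAaccgcccgccc
Suz12: gaactgaattcGCGGGAAAatgaggggtcg
Mtf2: accgctagtccGCGGGAAAccaaaatggcg
Phf19: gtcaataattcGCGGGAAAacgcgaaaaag
Pcgf2: cctcgcacctcGCGGGAAAcgcacggtggc
Phc1: actccaagaagGCGGGAAAcaacgccgcac
The sites are chr7:97129285-97129314 (minus strand) in Eed, chr11:79806378-79806407 (minus) at Suz12, chr5:108494729-108494758 (plus) at Mtf2, chr2:34769686-34769715 (minus) at Phf19, chr11:97561566-97561595 (plus) in Pcgf2 and chr6:122290487-122290516 (plus) in Phc1. At Eed, Suz12 and Mtf2 the letters lay under a peak in all 3 lists. At Phf19 and Phc1 they lay under a peak in both EPSC lists and outside the ESC peak. At Pcgf2 they lay outside the peaks of every list, 230 bp downstream of the outermost start.

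The same values for other gene lists are given as a description only. Of 30 other Polycomb-linked genes, such as partners of variant PRC1 and of the H2A deubiquitinase, 22 had a start peak in ESC, 28 in D-EPSC and 26 in L-EPSC. The D-EPSC peak was wider than the ESC peak for 17 of 22 and the L-EPSC peak for 17 of 22, with median ratios of 1.2 and 1.15, below those of the Polycomb complex genes. Of 18 Trithorax-group and COMPASS genes, which oppose Polycomb, 13, 15 and 16 had a start peak. Their ratios were 1.6 in D-EPSC and 1.39 in L-EPSC, with the D-EPSC peak wider than the ESC peak for 13 of 13 and the L-EPSC peak for 11 of 13. For 6 of 8 markers of pluripotent stem cells with a start peak in all lists, both EPSC peaks were wider than the ESC peak in 6 of 6, and the median ratios were 2.23 in D-EPSC and 1.67 in L-EPSC, so wider EPSC start peaks were not limited to Polycomb genes.

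As a check of the states, 8 markers of pluripotent stem cells had start peaks for 6 genes in ESC, 8 in D-EPSC and 8 in L-EPSC, the ESC list lacking one at Nanog and Esrrb. A gene without a peak in the ESC list was therefore not necessarily inaccessible in ESCs, and this applies to Pcgf2 and to the upstream starts of Bmi1. Of 8 markers of feeder fibroblasts, on which ESCs and L-EPSCs may be grown although both EPSC states were kept without feeders before the assay, 2 had a start peak in ESC, 4 in D-EPSC and 1 in L-EPSC. Col1a1 had 522 bp in D-EPSC and 992 bp in L-EPSC, Col1a2 555 bp in D-EPSC, Thy1 425 bp in ESC and 328 bp in D-EPSC, and Twist2 310 and 680 bp in the same lists. Dcn, Lum, Postn and Col3a1 had none in any list. The part of residual feeder cells in the Polycomb peaks was not tested.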

How the data were processed

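The deposited files hold, for each of 3 cell states, the chromosome, start, end and name of ATAC-seq peaks, with no score. Per the labels and the study's methods, the authors aligned paired reads to mm9 with Bowtie2 2.3.5, filtered them with SAMtools 1.10 and ran MACS at default settings to call peaks. How the 2 technical replicates were combined, and how duplicates and transposase offsets were treated, is not given in the sources used here, and both affect how many weak peaks pass and where edges fall.

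Peaks were matched to GENCODE M1 genes on NCBIM37 with Python 3.11.15, numpy 2.4.6, pandas 2.3.3 and pysam 0.24.0. In each list 2 peaks on other sequence names were left out. Interval steps were tested on simulated data, against bedtools 2.31.1 where it applied. A peak at a start shared at least 1 bp with the 1 kb on either side of a coding start. No test was possible, so counts are read beside the same counts over all coding genes.

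The rule for the genes uses no measured value, but the genes, lists and sequences were chosen with earlier results of these data known. Described in full were genes lacking a start peak in a list, the 3 largest width differences in each direction per pair of lists, the 5 genes with most body regions, and the widest body regions. Alternatives were windows of 500 bp and 2.5 kb, outermost or all starts, midpoints, equal list lengths and, chosen after seeing the data, a minimum width and the edge shifts.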

Additional observations from a re-analysis of the deposited data

How the results depend on the processing

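Of 116 recomputed values for start peaks, widths, edges, bodies and composition, 106 stayed within 1.5 times the count reported, or inside the 95% order-statistic interval of the median, which covers the spread between genes only. The other 10 moved. With the outermost start only, 2 genes had a start peak in both EPSC lists and not in ESC, Pcgf2 and Bmi1, and 2 also did with only peaks wider than 168 bp, Pcgf2 and Phf19, an alternative chosen after seeing the data. The share of all genes with this pattern was not recomputed under either setting. The 168 bp minimum left 6 body regions in both EPSC lists only, with 27, 32 and 41 body peaks in ESC, D-EPSC and L-EPSC and 15 genes with a body peak in each. With the widest 28965 peaks of each list, body peaks fell to 16 in D-EPSC and 24 in L-EPSC, genes with a body peak to 7 and 10, and body regions to 40 in all, 10 in all lists and 2 in both EPSC lists only. This alternative removes narrow peaks from the EPSC lists and leaves the ESC list whole. Of 26 values for the short consensus sequences 16 stayed within 1.5 times and 10 did not. Those that moved were NRF1, YY1 and TCF/LEF with 500 bp on either side, and Zfp281, YY1, Ronin core, TCF/LEF, octamer, Esrrb and E-box with every coding start. The E2F count was 6 in each setting run. No paired analysis was possible because the replicates of a state share a single list, which also meant that leaving out a replicate could not be tried. The depth behind the lists is unknown, so the absence of a peak does not show closed chromatin.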

Other observations

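Of 30 Polycomb-linked genes outside the 32, 4 had a start peak in both EPSC lists and not in ESC, as did 2 of 18 Trithorax-group and COMPASS genes and 9.16% of all protein-coding genes. Both EPSC lists had one at E2f6, the DNA-binding repressor of the Pcgf6 complex (614 bp in D-EPSC and 582 bp in L-EPSC), at Usp21, an H2A deubiquitinase (617 and 730 bp), at Sfmbt2, an MBT-domain protein (693 and 740 bp), and at Hcfc1, a partner of the Bap1 deubiquitinase (1543 and 1764 bp). Bcor, a partner of Pcgf1 and Kdm2b, had a start peak in D-EPSC only, of 1056 bp, as did Ogt, which adds O-GlcNAc, of 418 bp. Kdm6b, an H3K27 demethylase, and Fbrs had none in any list. Foxk2 had its widest start peak in ESC, with 1250 bp in ESC, 346 bp in D-EPSC and 663 bp in L-EPSC. Among Trithorax-group genes, both EPSC lists and not ESC had a start peak at Kmt2d (1071 and 988 bp) and Ncoa6 (704 and 1288 bp), and Kmt2a, an H3K4 methyltransferase, had 416, 1855 and 1543 bp in ESC, D-EPSC and L-EPSC. Kmt2a and Kmt2d carry older symbols in the annotation and were matched through RefSeq synonyms. These genes were singled out after their values had been seen.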
